A study of Mus musculus with 4 samples.

Results

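The 4 mouse stathmin genes, Stmn1, Stmn2, Stmn3 and Stmn4, were taken by gene symbol from a table of 43496 Ensembl genes measured by RNA-seq in E14 embryonic stem cells. Of the 4, 3 had reads and passed the filter on low counts, as did 15735 genes in all, and Stmn4 was listed at 0 in every library. The family was chosen by the p-value of Stmn3, the third smallest of all genes in the comparison described here, so the change of Stmn3 is given as a description. Stmn1, Stmn2 and Stmn4 came in through their symbols.

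E14 is a pluripotent mouse line, kept here on gelatin with serum and LIF. The MERVL shRNA group was transfected with a pSuper puro plasmid coding for a short hairpin RNA against MERVL, an endogenous retrovirus that the labels also call MuERVL, and its genotype is given as MERVL knocked down. The random shRNA group is labelled random, with the genotype wild type. The labels give 1000 ng of plasmid, puromycin at 1 ug/ml from 24 h after transfection and 4 days of selection, and the strain 12910la for both groups. Each group had 2 libraries, and no label says that they came from separate cultures. The spread behind each p-value is therefore that between these libraries, and it may be technical. Both MERVL shRNA columns carry the same shRNA name, so lower MERVL RNA and any other effect of that hairpin cannot be told apart.

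Stathmins are small phosphoproteins that bind tubulin heterodimers, keep them from polymerising and favour the switch of microtubule ends to shrinkage. Phosphorylation, by mitotic, MAP and calcium-dependent kinases among others, releases the tubulin. Stathmin 1, also called Op18, is cytosolic and abundant in dividing cells, including embryonic stem cells. Stathmin 2 (SCG10), stathmin 3 (SCLIP) and stathmin 4 (RB3) are known mainly from neurons and carry an extra amino-terminal region that attaches them to membranes. In non-neuronal cells the repressor REST acts on the gene of stathmin 2.

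In the GRCm38 (mm10) assembly, by GENCODE annotation, Stmn1 lies at chr4:134468320-134473843 on the plus strand and Stmn2 at chr3:8509360-8561606 on the plus strand. Stmn3 lies at chr2:181306459-181314500 on the minus strand and Stmn4 at chr14:66344296-66361680 on the plus strand. Their coding sequences, in the first-numbered transcript of each gene, run to 450, 540, 543 and 570 bases for Stmn1, Stmn2, Stmn3 and Stmn4. The stretch of 120 coding bases in which the 4 genes are most alike is shown because it tells how far reads of the members can be confused. Capitals mark the 74 bases that are the same in all 4 genes. Positions, counted from the A of the start codon, are 182 to 301 in Stmn1, 284 to 403 in Stmn2, 287 to 406 in Stmn3 and 314 to 433 in Stmn4.
Stmn1: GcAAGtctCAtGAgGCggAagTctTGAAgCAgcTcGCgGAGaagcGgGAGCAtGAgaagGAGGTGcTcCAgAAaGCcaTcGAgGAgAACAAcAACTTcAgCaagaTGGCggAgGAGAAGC
Stmn2: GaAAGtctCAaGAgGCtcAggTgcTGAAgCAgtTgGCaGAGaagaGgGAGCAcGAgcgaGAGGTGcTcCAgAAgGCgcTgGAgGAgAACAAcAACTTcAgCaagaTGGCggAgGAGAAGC
Stmn3: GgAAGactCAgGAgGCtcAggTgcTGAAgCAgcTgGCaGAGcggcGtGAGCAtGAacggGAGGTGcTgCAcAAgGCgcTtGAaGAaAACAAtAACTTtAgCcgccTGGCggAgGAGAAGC
Stmn4: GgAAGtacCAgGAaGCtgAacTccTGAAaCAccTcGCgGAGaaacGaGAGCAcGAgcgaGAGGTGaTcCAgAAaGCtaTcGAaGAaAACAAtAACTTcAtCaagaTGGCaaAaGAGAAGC

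Over the aligned coding bases, the pairs of genes were between 66.3% (Stmn3 and Stmn4) and 73.5% (Stmn2 and Stmn3) identical. Shared runs were sought for the first-numbered transcript of each member, and further annotated transcripts of Stmn1, Stmn2 and Stmn4 were not searched. The longest run of identical bases between 2 of these member transcripts was 43, in Stmn1 and Stmn2. Stmn3 shared no more than 21 in a row with any other member. No stretch of 50 bases in these Stmn2, Stmn3 and Stmn4 transcripts occurred in a transcript of another gene. In Stmn1, 36.5% of such stretches did, 351 of them in the processed pseudogene Gm11223 and 18 in Gm23634, a miRNA gene inside the Stmn1 gene. How the authors' counting divided reads between Stmn1 and its pseudogene was not tested, so the level of Stmn1 is uncertain to that extent. In CPM, counts relative to the TMM-scaled library size, Gm11223 had 23.9 and 26.9 with MERVL shRNA, against 27.0 and 27.9 with random shRNA, which was 7.63% to 8.96% of Stmn1 in the same library.

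The 250 bases before the annotated start of Stmn3, the member whose level differed between the groups, are shown 5' to 3' on the minus strand (chr2:181314501-181314750, RefSeq annotation of GRCm38.p6), with CG dinucleotides in capitals. Of the 4 genes, Stmn3 alone was matched in the promoter table used.
Stmn3: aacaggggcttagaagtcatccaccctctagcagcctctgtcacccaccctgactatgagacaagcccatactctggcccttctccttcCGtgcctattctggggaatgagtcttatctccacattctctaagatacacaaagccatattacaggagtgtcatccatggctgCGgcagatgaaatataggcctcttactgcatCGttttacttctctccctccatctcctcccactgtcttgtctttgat

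This window holds 3 CG dinucleotides, against a median of 6.0 in the same 250 bases of 32851 mouse promoters, of which 37.8% held 3 or fewer. On both strands it was searched for the TATA box TATAAA, which 12.4% of these promoters held, and for the GC box GGGCGG, which 32.7% held. It was also searched for the CCAAT box, in 33.8% of promoters, and for the E-box CACGTG, in 6.02%. None of the 4 was in the Stmn3 window, from which nothing follows about the factors that bind them.

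Library totals ran from 11628887 to 16067854 estimated counts. The targeted element, summed over 2277 copies, had 1162 and 572.3 CPM in the MERVL shRNA libraries, against 4661 and 1431 CPM in the random shRNA libraries. The MERVL shRNA pair was more alike than the random shRNA pair (Pearson r across features of 0.989 and 0.963; features are not independent replicates). Embryonic stem cell markers were present, with all 9 listed genes passing the filter, a median log2 fold change of 0.20 and summed levels of 8925 and 9667 CPM in the MERVL shRNA libraries and 7624 and 8728 CPM in the random shRNA libraries. Of the 13 neuron markers, 10 passed the filter as well. Those that did not were Dcx, at 0 in every library, and Snap25 and Rbfox3, which stayed under 1 CPM. The 13 neuron markers summed to 156.6 and 169 CPM with MERVL shRNA, against 214.5 and 142 CPM with random shRNA. Tubb3 alone made up 76.7 and 90.7 CPM of the MERVL shRNA sums and 129.6 and 70.8 CPM of the random shRNA sums.

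Stmn3 was the member that differed between the groups, with a level 4.78-fold higher after MERVL shRNA than after random shRNA. It had 37.8 and 39.7 CPM in MERVL shRNA replicates 1 and 2, against 6.51 and 9.81 CPM in random shRNA replicates 1 and 2. Both MERVL shRNA libraries thus lay well above both random shRNA libraries, and the gap between groups was far wider than the gap within either. Means were 38.8 ± 1.34 CPM (SD, n = 2) with MERVL shRNA and 8.16 ± 2.34 CPM (SD, n = 2) with random shRNA. These CPM rest on 602 and 560 estimated counts in the MERVL shRNA libraries and on 102 and 117 in the random shRNA libraries, all whole numbers. In bulk RNA, more cells that express a gene and more RNA per cell cannot be told apart.

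The log2 fold change of Stmn3 was 2.26 ± 0.23 (SE), with a 95% interval of 1.71 to 2.81 that comes from a spread pooled over features. Only 12 of the 15735 genes tested, Stmn3 included, had a log2 fold change this high, 0.0763% of them. Neither this share nor the interval allows for the choice of the family by the p-value of Stmn3 in this comparison. Stmn3 did not pass the threshold of 0.05 over all features (edgeR quasi-likelihood test with Benjamini-Hochberg adjustment, adjusted p = 0.161), where 0.00636% of genes, a single gene, were called. It passed in DESeq2 (2.27, adjusted p = 1.15e-11), which called 1.16% of genes, and not in limma-voom (adjusted p = 0.165), which called 0%. Without random shRNA replicate 1 it was 1.99 ± 0.17 and without random shRNA replicate 2 it was 2.59 ± 0.17, both past the threshold, in fits that called 14.3% and 29.3% of genes. Without MERVL shRNA replicate 1 or 2 it was 2.32 and 2.23 and did not pass, in fits that called 0.0122% and 0.012% of genes. It also passed with no filter (2.86% of genes called) and with the replicate number as a block (2.3% called), and not with a 1 CPM filter (0.00676% called). An exact permutation test of 2 against 2 libraries cannot give a two-sided p below 0.333 and was not run.

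Stmn1, the cytosolic member, differed between the groups by less than the spread of the random shRNA libraries. It had 313 and 311 CPM in MERVL shRNA replicates 1 and 2, against 301 and 351 CPM in random shRNA replicates 1 and 2. The MERVL shRNA libraries lay between the random shRNA libraries. The log2 fold change was -0.06 ± 0.15 (edgeR adjusted p = 0.895), and its 95% interval, -0.43 to 0.30, allows for changes of that size in either direction. It was -0.16 without random shRNA replicate 1 and had the opposite sign, 0.07, without random shRNA replicate 2. Added to its pseudogene Gm11223, Stmn1 came to 337.0 and 337.4 CPM with MERVL shRNA, against 328 and 379 CPM with random shRNA, and the MERVL shRNA libraries again lay between the random shRNA libraries.

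Stmn2, known mainly as a neuronal stathmin, had between 4017 and 5182.5 estimated counts in every library of these stem cells. It had 309.6 and 331 CPM in MERVL shRNA replicates 1 and 2, against 331 and 337 CPM in random shRNA replicates 1 and 2. The groups overlapped, with MERVL shRNA replicate 2 just above random shRNA replicate 1. The log2 fold change was -0.06 ± 0.14 (edgeR adjusted p = 0.896), with a 95% interval of -0.40 to 0.28. Leaving out MERVL shRNA replicate 1 turned its sign, to 0.02, and leaving out random shRNA replicate 1 or 2 gave -0.07 and -0.03.

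Stmn4 had an estimated count of 0 in all 4 libraries and was not tested. A count of 0 allows up to 3 counts per library, which is 0.189 and 0.213 CPM in the MERVL shRNA libraries and 0.191 and 0.252 CPM in the random shRNA libraries. At this depth the RNA of stathmin 4 was therefore not detectable, and no fold change can be given. Of the 3 members that passed the filter, Stmn3 was the single member whose libraries did not overlap between groups, where 44.8% of all genes tested did not overlap, 23% being higher and 21.9% lower with MERVL shRNA.

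**Figure D1:**
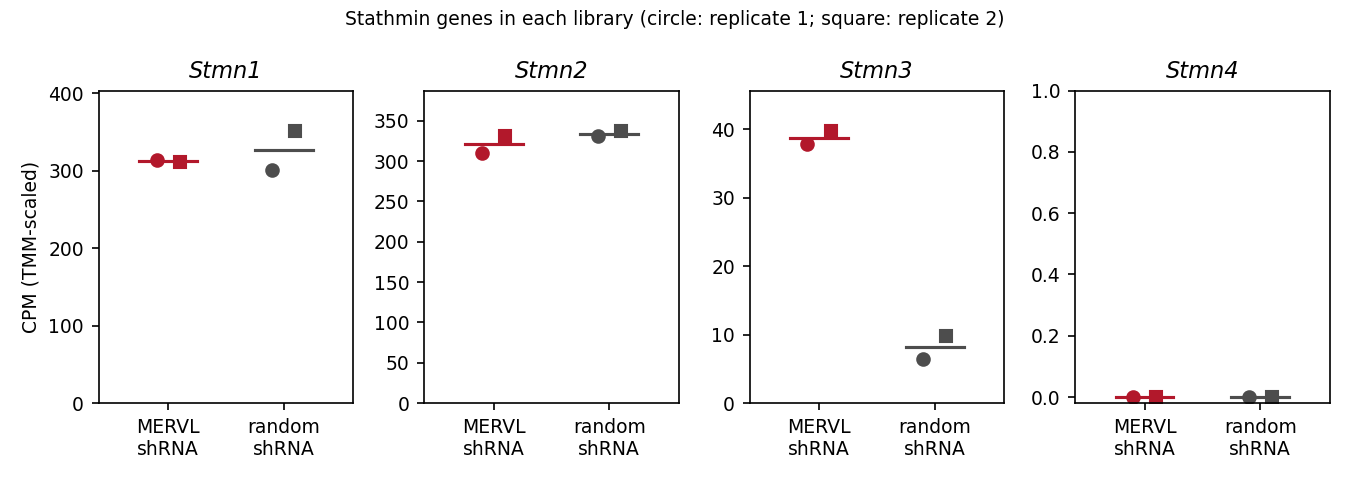
TMM-scaled CPM of each stathmin gene, each panel with its own linear axis from 0, with points for libraries and lines for group means. Stmn3 stands near 39 CPM in both MERVL shRNA libraries and below 10 CPM in both random shRNA libraries, Stmn1 and Stmn2 are level, and Stmn4 is at 0.

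Between genes, levels can be compared only per length, here CPM per kilobase of the union of annotated exons. In MERVL shRNA libraries Stmn1 led with 162 ± 0.961, followed by Stmn2 with 57.2 ± 2.75 and Stmn3 with 34.1 ± 1.18 CPM per kb (SD, n = 2 each). In random shRNA libraries Stmn1 had 170 ± 18.2, Stmn2 59.6 ± 0.787 and Stmn3 7.18 ± 2.06 CPM per kb (SD, n = 2 each). The order was the same in all 4 libraries, and neighbours in it differed by more than their spread. The exon union of Stmn2, at 5602 bases, is much longer than its first-numbered transcript, at 2073. Over the principal coding transcript alone, a length chosen after seeing the data, Stmn2 stood at 155 CPM per kb with MERVL shRNA and 161 with random shRNA, against 294 and 307 for Stmn1, and Stmn3 was unchanged because it has a single annotated transcript. The order also held with that length.

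The makeup of stathmin RNA differed accordingly. Per kilobase of the exon union, Stmn3 made up 13.2% and 13.7% of the family with MERVL shRNA, against 2.59% and 3.44% with random shRNA. Stmn1 made up 64.8% and 63.2% with MERVL shRNA and 70.8% and 72.6% with random shRNA. Stmn2 made up 21.98% and 23.1% with MERVL shRNA and 26.7% and 23.9% with random shRNA. These shares depend on the length used. Over the principal coding transcript Stmn1 and Stmn2 stand higher per kb and Stmn3 is unchanged, so the share of Stmn3 would be smaller in both groups. Summed without regard to length, the family stood at 660.6 and 682 CPM with MERVL shRNA and 638 and 697 CPM with random shRNA, so the groups overlapped and Stmn3 added little to the total.

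A ratio within a library does not depend on how libraries are scaled. For every 100 estimated counts of Stmn1 there were 12.1 (95% exact binomial interval 11.1 to 13.2) and 12.8 (11.7 to 13.97) of Stmn3 in the MERVL shRNA libraries. In the random shRNA libraries there were 2.16 (1.76 to 2.63) and 2.80 (2.31 to 3.36). Against Stmn2, Stmn3 had 12.2 and 12.0 per 100 with MERVL shRNA and 1.97 and 2.91 with random shRNA. The intervals cover counting error only, and these ratios describe the values by which Stmn3 stood out. The ratio of Stmn2 to Stmn1 overlapped between the groups, with 98.9 and 107 per 100 in the MERVL shRNA libraries and 109.8 and 96.1 in the random shRNA libraries.

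**Figure D2:**
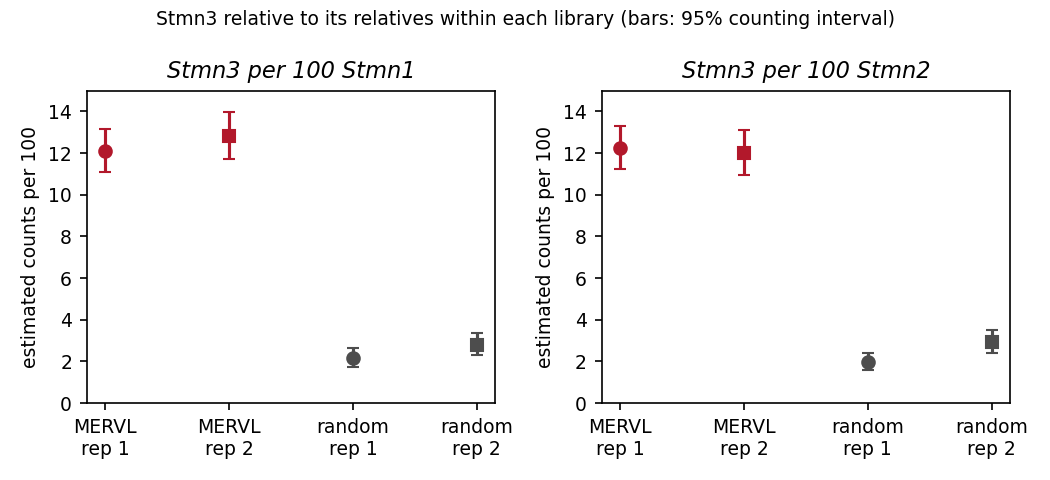
Estimated counts of Stmn3 per 100 of Stmn1 (left) and per 100 of Stmn2 (right) in each library, with 95% exact binomial intervals. Both ratios are near 12 in the MERVL shRNA libraries and between 1.97 and 2.91 in the random shRNA libraries.

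The table of normalized scores that the authors deposited gave a like picture for the groups and another order within the random shRNA pair. Stmn3 had scores of 523 and 563 in the MERVL shRNA libraries and 132 and 106 in the random shRNA libraries, so that random shRNA replicate 1 was the higher of its pair in the scores and the lower of it in CPM. The scores of Stmn1 were 4439 and 4442 with MERVL shRNA and 4723 and 4768 with random shRNA, and those of Stmn2 were 4420 and 4752 against 4824 and 4875. For both genes the groups did not overlap in the scores, the MERVL shRNA libraries being the lower, whereas they overlapped in CPM. Stmn1 and Stmn2 had log2 fold changes on log2(score + 1) of -0.10 and -0.08 that did not pass limma (adjusted p = 0.174 and 0.357). On the same scale Stmn3 had a log2 fold change of 2.19 ± 0.14 and passed (adjusted p = 0.0340), in a test that called 19.9% of genes (19.5% with a pseudocount of 0.5).

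**Figure D3:**
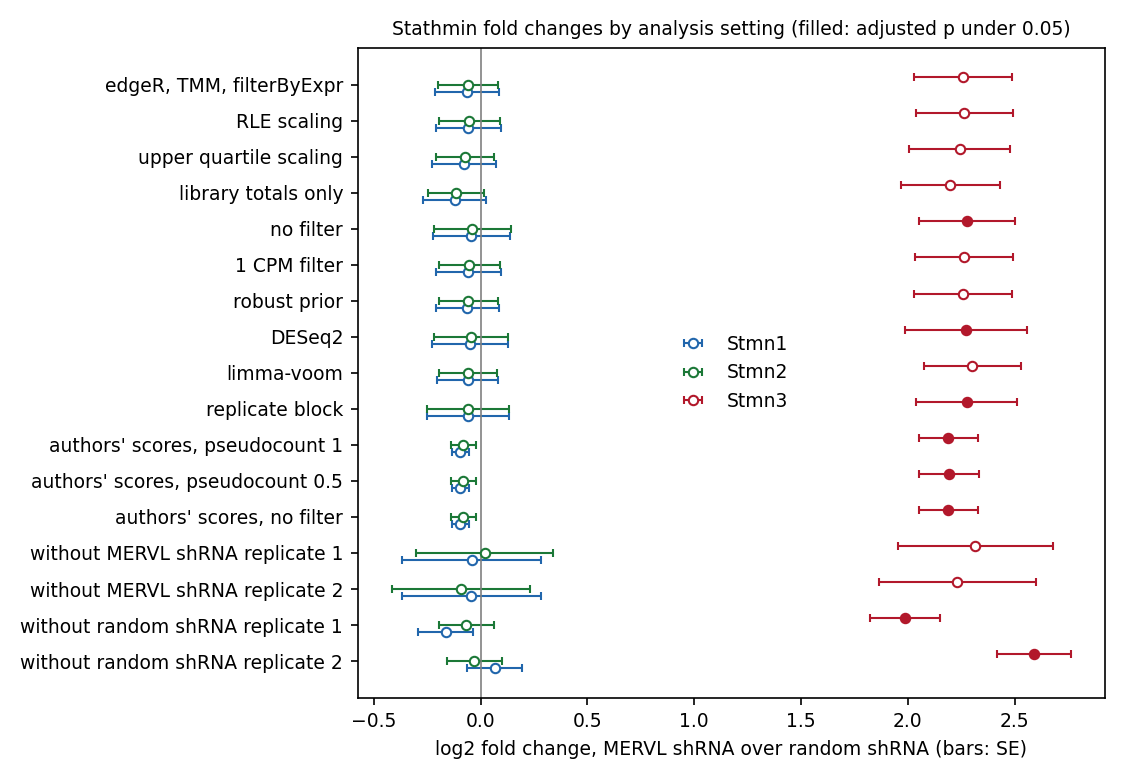
Log2 fold change of Stmn1, Stmn2 and Stmn3 (MERVL shRNA over random shRNA) with its SE under each analysis setting, filled where the adjusted p was under 0.05. Stmn3 stays between 1.99 and 2.59 in all settings and is filled in 8 of the 16 alternatives, while Stmn1 and Stmn2 stay near 0. The alternatives use the same libraries and are not independent, and those on the authors' scores give nearly the same values.

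The genes beside Stmn3 did not share its fold change. Rtel1, a DNA helicase that protects telomeres, starts 5238 bases away and is read in the opposite direction. It had 124 and 109 CPM in the MERVL shRNA libraries, against 98.8 and 76.6 CPM in the random shRNA libraries, so the groups did not overlap. Its log2 fold change was 0.41 ± 0.17 (edgeR adjusted p = 0.368). Gmeb2, a DNA-binding protein gene downstream of Stmn3, was at 0.04 ± 0.15, and Arfrp1, a small GTPase of the Golgi, at -0.23 ± 0.16 (edgeR adjusted p = 0.932 and 0.587). The pseudogene Gm7645 did not exceed 0.440 CPM. No annotated gene overlaps Stmn3.

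Within 50 kb of Stmn1, Pafah2, Paqr7 and Aunip had log2 fold changes of 0.14, -0.08 and -0.10, and Trim35 near Stmn4 had -0.21, with overlapping groups in all 4. No protein-coding gene other than Stmn2 was annotated in its own window. The gene 3066 bases from Stmn4, Gm41183, is not in the count table.

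Across the 4 libraries, Mt2 and Hmga2 had the profiles most like that of Stmn3, by Euclidean distance between centred log2(CPM + 1) values over 12855 protein-coding genes with a mean of at least 1 CPM. Mt2, a metallothionein that binds zinc and copper, lay at a distance of 0.420, and Hmga2, which codes for an AT-hook protein of chromatin, at 0.445. The median of all candidates was 2.19, and these were the only candidates within 0.5. Mt2 had 476 and 598 CPM in the MERVL shRNA libraries, against 92.0 and 188 CPM in the random shRNA libraries. Hmga2 had 30.0 and 31.1 CPM with MERVL shRNA and 7.66 and 8.22 CPM with random shRNA. The next were Ccdc141 (0.754), the aldehyde oxidase Aox1 (0.790) and Mt1, a second metallothionein (0.792). The 1 added to CPM draws together the values of genes at low levels. Aox1, at 0.574 to 3.62 CPM, had a log2 fold change of 2.42 ± 0.42 and still lay further off than Mt2 and Hmga2. With 4 libraries in 2 groups, a gene with a similar fold change at a sufficient level tends to have such a profile. Nothing about shared control therefore follows.

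For the level genes such likeness says little. Within a distance of 0.5 there were 8724 candidates for Stmn1 and 9120 for Stmn2. The nearest to Stmn1 was Ndrg4 (0.00856), followed by Mcoln1, Sh3d19, Akna and Ercc5. The nearest to Stmn2 was Pcna (0.0150), the sliding clamp of DNA replication, followed by Pxmp2, Endog, R3hdm4 and Ramp3.

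**Figure D4:**
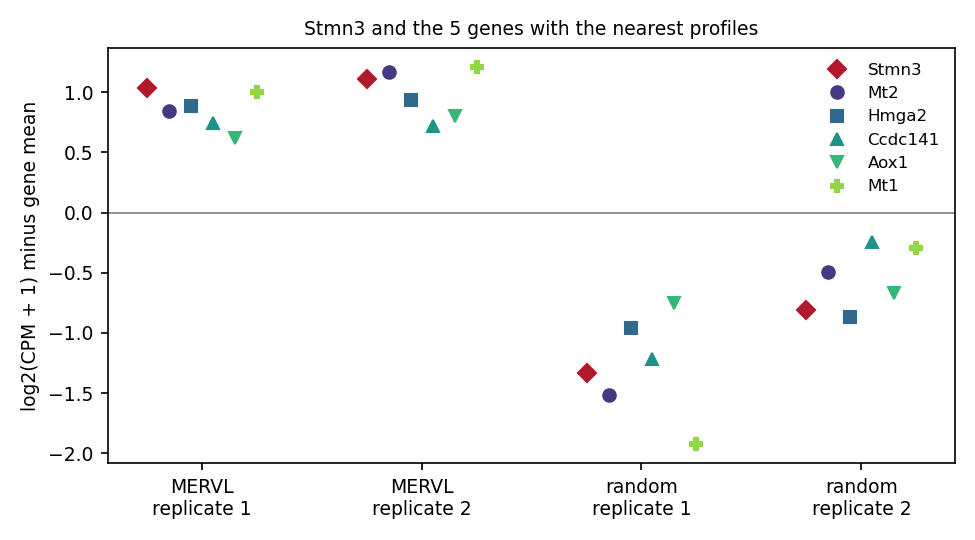
Log2(CPM + 1) minus each gene's own mean in the 4 libraries, for Stmn3 and the 5 genes with the nearest profiles. All 6 genes lie above 0 in both MERVL shRNA libraries and below 0 in both random shRNA libraries, with random shRNA replicate 1 the lowest library for each of the 6.

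Other genes of the microtubule system were examined beside the stathmins. Of 84 genes tested from 4 lists of tubulins, other destabilising proteins, stabilising proteins and folding or modifying enzymes, none passed edgeR over all features. The share of all genes passing was 0.00636% in that fit, 1.16% in DESeq2 and 0% in limma-voom. A count of 0 from limma-voom therefore says nothing about a list. Of these 84 genes, 30 had libraries that did not overlap between groups (35.7%, against 44.8% of all genes tested), 15 higher and 15 lower with MERVL shRNA. None had a log2 fold change of 1 or more in size, which 5.34% of all genes had. The median over the 84 was -0.05, beside 0.00 over all genes tested.

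Tubulins are the proteins that stathmins bind. Among the 16 tested, 14 log2 fold changes were negative, with a median of -0.19. Leaving out random shRNA replicate 1 or 2 gave medians of -0.05 and -0.29. Leaving out MERVL shRNA replicate 1 or 2 gave -0.09 and -0.19. The abundant beta tubulin Tubb5 had 1406 and 1568 CPM in the MERVL shRNA libraries, against 2053 and 1431 CPM in the random shRNA libraries, so that random shRNA replicate 1 alone stood apart. Tubb6, another beta tubulin, had 59.4 and 61.6 CPM with MERVL shRNA and 92.7 and 76.3 CPM with random shRNA. Its log2 fold change was -0.48 ± 0.15 (edgeR adjusted p = 0.329). Tubg1, the gamma tubulin of the centrosome, had -0.33 ± 0.15, Tube1 -0.24 ± 0.21 and Tuba4a -0.17 ± 0.13. In this list 3 genes (18.8%, against 44.8% of all genes tested) did not overlap between groups, each being lower, and 1 gene had an unadjusted p under 0.05 (11.2% of all genes tested did), while DESeq2 and limma-voom called 0. Tubulin genes resemble each other closely, so the value of a single tubulin gene is uncertain.

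Proteins that depolymerise or sever microtubules by other means had a median of 0.04 over 13 genes, with 10 positive. Leaving out MERVL shRNA replicate 1 or 2 gave medians of 0.09 and 0.03, and leaving out random shRNA replicate 1 or 2 gave 0.02 and 0.17. The severing AAA protein genes Fignl2 and Fignl1 had log2 fold changes of 0.54 ± 0.15 and 0.31 ± 0.18, and the depolymerising kinesin Kif2a had -0.22 ± 0.14. Kif2c, the depolymerising kinesin of centromeres, had 167 and 171 CPM in the MERVL shRNA libraries, against 168 and 167 CPM in the random shRNA libraries. The mitotic kinesin Kif18b had -0.31 ± 0.24. In this list 2 genes were higher and 1 lower without overlap (23.1%, against 44.8% of all genes tested). Of the 13, 1 had an unadjusted p under 0.05 (11.2% of all genes tested did), while DESeq2 and limma-voom called 0.

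Stabilising and end-binding proteins were split evenly, with 16 of 32 positive and a median of -0.02 (0.08 without random shRNA replicate 2 and 0.01 without random shRNA replicate 1). Map1a and Map7 had 0.47 ± 0.14 and 0.44 ± 0.15, whereas Map7d1 and Map6 had -0.46 ± 0.14 and -0.88 ± 0.27 (edgeR adjusted p from 0.329 to 0.336). In this list 7 genes were higher and 6 lower without overlap (40.6%, against 44.8% of all genes tested). Of the 32, 4 had an unadjusted p under 0.05 (11.2% of all genes tested did), and DESeq2 and limma-voom called 0.

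Among folding cofactors and tubulin-modifying enzymes, the median was 0.00 over 23 genes (-0.04 to 0.05 with a library left out). Agtpbp1, a carboxypeptidase that trims glutamates from tubulin tails, had 42.4 and 39.7 CPM in the MERVL shRNA libraries, against 18.6 and 23.9 CPM in the random shRNA libraries. Its libraries did not overlap between groups, and its log2 fold change was 0.95 ± 0.18 (edgeR adjusted p = 0.283). DESeq2, edgeR with no filter and edgeR with a replicate block each called it higher, alone among the 84 genes. These fits called 1.16%, 2.86% and 2.3% of all genes, and limma-voom, which did not call it, called 0%. The cofactor-like Tbcel had 0.37 ± 0.15, the tubulin deacetylase Hdac6 -0.28 ± 0.14 and the polyglutamylase Ttll7 -0.86 ± 0.44. Ttll7 stood at 0.851 to 2.11 CPM, so few reads decide its value. Of the 23, 6 were higher and 5 lower without overlap (47.8%, against 44.8% of all genes tested). An unadjusted p under 0.05 was found for 2 of them (11.2% of all genes tested).

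**Figure D5:**
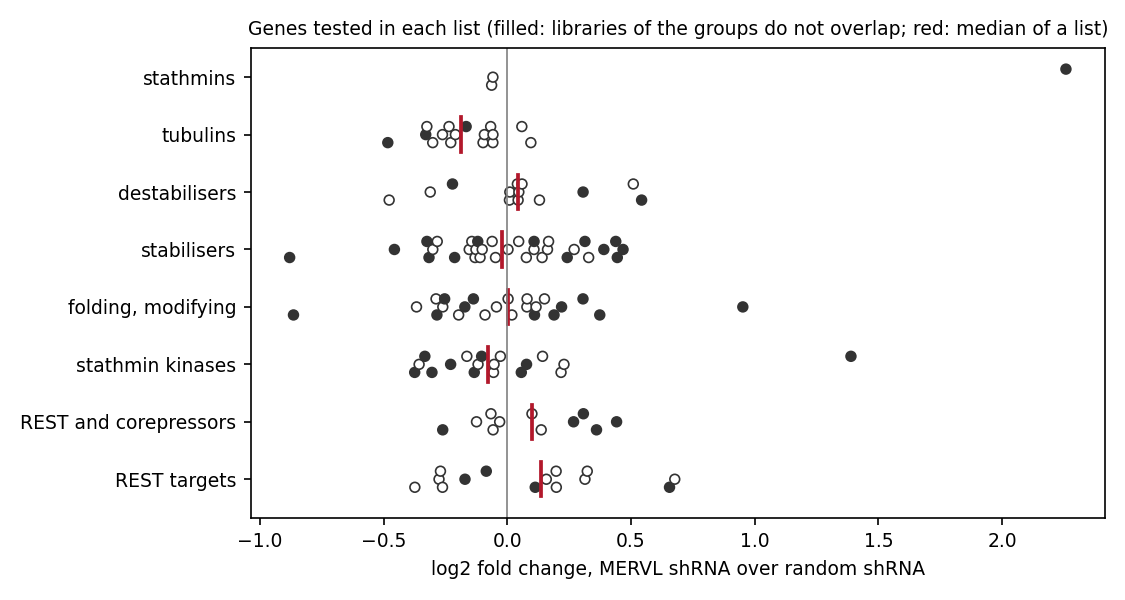
Log2 fold change (MERVL shRNA over random shRNA) of each gene tested in the 7 lists and of the 3 stathmin genes tested, filled where the libraries of the groups do not overlap, with a red line at the median of a list. Stmn3, at 2.26, lies to the right of every other gene plotted, the next being Camk2d at 1.39.

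Kinases known to phosphorylate stathmins had a median of -0.08 over 18 genes (-0.08 to 0.00 with a library left out, the upper value without MERVL shRNA replicate 1), 12 of them negative. The groups did not overlap for 9, 3 higher and 6 lower, which is 50% against 44.8% of all genes tested. Camk2d, a calcium and calmodulin dependent kinase, had 4.97 and 4.11 CPM in the MERVL shRNA libraries, against 1.47 and 2.01 CPM in the random shRNA libraries. Its log2 fold change was 1.39 ± 0.37 (edgeR adjusted p = 0.329), at a level low enough that few reads decide it. Pak1, Cdk5 and Camk2g had -0.37 ± 0.15, -0.33 ± 0.19 and -0.23 ± 0.15. No kinase passed edgeR over all features and 2 of the 18 had an unadjusted p under 0.05 (11.2% of all genes tested did). DESeq2, limma-voom and edgeR with a replicate block called 0, and edgeR with no filter called Camk2d higher.

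The gene of REST, the repressor of neuronal genes, differed by less than the spread of the random shRNA libraries. Rest had 173 and 171 CPM in the MERVL shRNA libraries, against 208 and 151 CPM in the random shRNA libraries, a log2 fold change of -0.07 ± 0.18 (edgeR adjusted p = 0.913). Of its corepressors, the histone deacetylases Hdac2 and Hdac1 had 0.44 ± 0.15 and 0.27 ± 0.15, the methyltransferase Ehmt2 0.31 ± 0.13 and Sin3b -0.26 ± 0.14. The 11 genes had a median of 0.10, which was -0.06 without random shRNA replicate 2 and 0.19 without random shRNA replicate 1. The groups did not overlap for 5, 4 of them higher, which is 45.5% against 44.8% of all genes tested. In edgeR 0 passed over all features and 1 of the 11 had an unadjusted p under 0.05 (11.2% of all genes tested did). DESeq2 and limma-voom called 0.

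Other neuronal genes known as REST targets had a median of 0.14 over 14 genes tested, with 8 positive. The median was 0.06 without random shRNA replicate 1 and 0.20 without random shRNA replicate 2. Syp, a synaptic vesicle protein, had 1.82 and 2.06 CPM in the MERVL shRNA libraries, against 0.893 and 1.59 CPM in the random shRNA libraries. At this level few reads decide its value. Unc13a, Celsr3 and the neuronal beta tubulin Tubb3 had log2 fold changes of 0.20 ± 0.17, 0.32 ± 0.30 and -0.26 ± 0.28. Of the 14, 4 did not overlap between groups (28.6%, against 44.8% of all genes tested), 2 in each direction. The largest log2 fold change in the list was 0.68 ± 0.98, in the glutamate receptor gene Grin1. Grin1 had 15.6 and 13.8 CPM with MERVL shRNA, against 0.893 and 17.9 CPM with random shRNA, so random shRNA replicate 1 alone stood apart. In edgeR 0 passed and 0 had an unadjusted p under 0.05 (11.2% of all genes tested did), and DESeq2 and limma-voom called 0.

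Markers of other cell types were examined beside Stmn3. Of 8 neural progenitor markers, 4 passed the filter, Fabp7 and Olig2 were at 0, and the list summed to 49.7 and 50.8 CPM in the MERVL shRNA libraries, against 45.3 and 44.9 CPM in the random shRNA libraries. In that list Sox1 had 12.9 and 13.4 CPM with MERVL shRNA and 5.23 and 3.27 CPM with random shRNA, a log2 fold change of 1.62 ± 0.29, and Msi1 had 0.36 ± 0.26, while Nes had -0.99 ± 0.25 and Pax6 -0.29 ± 0.44. These 4, 2 positive and 2 negative, had a median of 0.03 (-0.06 to 0.16 with a library left out). Of the 4, 2 were higher and 1 lower without overlap (75%, against 44.8% of all genes tested). Among neuron markers, 10 were tested, 5 positive and 5 negative, with a median of -0.02. Leaving out MERVL shRNA replicate 1 or 2 gave medians of 0.09 and -0.10, leaving out random shRNA replicate 1 or 2 gave 0.18 and 0.11, and dropping the filter gave 0.14. Without overlap, 5 of the 10 were higher and 2 lower (70%, against 44.8% of all genes tested). Nefl and Syp had 0.65 ± 0.20 and 0.66 ± 0.45, and Gap43 and Elavl4 had -0.66 ± 0.24 and -0.50 ± 0.37. Fibroblast markers summed to 18.5 and 15.3 CPM with MERVL shRNA and 30.9 and 41.4 CPM with random shRNA, with Col3a1, Dcn, Lum and Postn at 0. Most of the sum with random shRNA came from Thy1, which neurons also express. Thy1 had 8.67 and 6.88 CPM with MERVL shRNA and 23.1 and 28.8 CPM with random shRNA, a log2 fold change of -1.73 ± 0.22. Of the fibroblast markers 3 were tested, 0 being higher and 2 lower without overlap (66.7%, against 44.8% of all genes tested). Their median log2 fold change was -1.14 (-1.40 to -0.76 with a library left out), the value of Col1a1, at 0.629 to 1.98 CPM. Pdgfrb had 0.04 ± 0.37, with overlapping groups. Among embryonic stem cell markers 7 of 9 were positive, 6 higher and 1 lower without overlap (77.8%, against 44.8% of all genes tested, 23% higher and 21.9% lower), the furthest being Dppa5a at 0.39 ± 0.23. No marker passed edgeR over all features. There, unadjusted p was under 0.05 for 2 of 4 neural progenitor, 2 of 10 neuron, 1 of 3 fibroblast and 0 of 9 stem cell markers. Of all genes tested, 11.2% had such a p. DESeq2, which called 1.16% of genes, called Sox1 higher and Thy1 lower. By limma-voom 0 were called, as among all genes tested. In edgeR, either a replicate block or dropping the filter (2.3% and 2.86% of genes called) led to calls of Sox1 as higher and of Nes and Thy1 as lower. The part of these markers in the value of Stmn3 was not tested.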

How the data were processed

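HISAT2 and Trim Galore, with the genome build mm10, are named in the submitters' processing notes. The sources used here give no counting program, no versions and no use of strand. The authors deposited estimated counts for 45773 features and normalized scores, in whole numbers, for 17823. The sources used here do not say how the authors computed that score. Per library, 19.1% to 20.8% of the estimated counts in the table were not whole. Columns were matched to samples by shRNA name and replicate number.

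Estimated counts were rounded to whole numbers and tested with the edgeR 4.0.16 quasi-likelihood F test (R 4.3.3) after TMM scaling and filterByExpr, over genes and MERVL copies together, with MERVL shRNA over random shRNA and Benjamini-Hochberg adjustment. Scores were tested with limma 3.58.1 on log2(score + 1). Alternatives were other scalings, filters and priors, DESeq2 1.42.0, limma-voom, a replicate block and leaving out each library. The main edgeR fit was tested on simulated data, and the other fits were not. Intervals of ratios are 95% exact (Clopper-Pearson) and, like the floor of 3 counts, cover counting error only.

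Members and lists were chosen with earlier results of these data known. Named genes were the members, up to 4 genes per list by smallest p, Rest, the 5 nearest profiles per member and genes within 50 kb; Tubb5, Kif2c, Dcx, Snap25, Rbfox3, Fabp7, Olig2, Grin1, Col3a1, Dcn, Lum and Postn were added after their values were seen. MERVL copies carry no position in the table, so the nearest copy was not sought.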

Additional observations from a re-analysis of the deposited data

How the results depend on the processing

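Stmn3 was higher with MERVL shRNA in all 16 alternatives, which use the same libraries and are not independent checks. With no filter edgeR called it (2.28, adjusted p = 5.85e-21), and it was also called by DESeq2 (2.27), with a replicate block (2.28, adjusted p = 0.000344), and in the authors' scores with a pseudocount of 1 (2.19) or 0.5 (2.19) and with no filter on the scores (2.19), a filter that removed no gene. It did not pass under 3 other scalings, a 1 CPM filter, a robust prior, limma-voom, or without either MERVL shRNA library (adjusted p from 0.0752 to 0.199). With a library left out, where the lone library of its group is assumed to vary like the other pair, it ran from 1.99 to 2.59. Neither Stmn1 nor Stmn2 passed in any alternative, and with a library left out they ran from -0.164 to 0.066 and from -0.0939 to 0.0182, Stmn1 being positive (0.066) without random shRNA replicate 2 and Stmn2 (0.0182) without MERVL shRNA replicate 1.

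Against 1 gene called higher and 0 lower in the main analysis, edgeR called 270 and 467 with no filter and 110 and 252 with a replicate block, DESeq2 68 and 101, limma-voom 0 higher, and the scores 1660 and 1733 with a pseudocount of 1 or no filter and 1630 and 1696 with 0.5. With a library left out, 2 to 2557 genes were called higher and 0 to 2243 lower. A fit with a library left out takes its spread from the pair that remains. Without a random shRNA library that is the MERVL shRNA pair, which was the more alike. Why the settings differ in their counts was not tested. Same-numbered libraries deviated together with a correlation of 0.250 over 16353 features, which with 2 pairs does not show that the numbers pair the samples. Across alternatives, 162 list medians moved by less than the spread between libraries and 14 by more.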
